A study of Mus musculus with 8 samples.

Results

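The mouse mitochondrial genome carries 37 genes, and all of them were listed in the deposited expression table. They were chosen by symbol: every identifier whose GENCODE symbol starts with mt- was taken, which gave 37 of 55335 identifiers (55154 of them with a symbol). Of the 37 genes, 13 encode proteins of the respiratory chain and the ATP synthase, 2 encode ribosomal RNAs and 22 encode transfer RNAs. The table covers 8 libraries of MC3T3-E1, a mouse cell line of pre-osteoblasts first derived from calvaria. In 4 of them the cells had spent 3 days with a Trio-Active bone scaffold (TABS), of which the sources used here give no composition. In the other 4 the scaffold was magnesium-doped hydroxyapatite (HA), for an equal time. Both groups grew with a scaffold, so a value lower in TABS is lower relative to HA only. The labels do not call the 4 replicates of a group separate cultures, so p-values cover only library-to-library spread, part or all of which may be technical. TABS libraries are named with an H and HA libraries with an L. Neither letter matches its group's name, and if the groups were swapped all directions here would turn.

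Mitochondrial DNA is transcribed on both strands from promoters in the control region into long precursor RNAs that span many genes. Transfer RNA genes lie between most of the protein and ribosomal RNA genes, and cutting the precursor at the ends of the tRNAs releases the separate transcripts. Most genes belong to the heavy-strand transcript; mt-Nd6 and several tRNA genes belong to the light-strand transcript and are annotated on the minus strand of the reference. The mRNAs encode core subunits of complexes I, III, IV and V of oxidative phosphorylation, and the rRNAs and tRNAs serve only the ribosomes inside mitochondria. Osteoblasts use both glycolysis and oxidative phosphorylation, with a balance that is known to change as they mature.

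Values are FPKM, fragment counts scaled by gene length and library size, as the authors deposited them. The total over all genes ran from 304893 to 307263 FPKM per library in TABS and from 312629 to 317439 in HA. Every TABS total thus lay below every HA total. Read totals were not in the table, so the read depth behind a value is unknown. Of 7 osteoblast lineage markers, 5 were at 1 FPKM or more in all 8 libraries (Runx2, Sp7, Col1a1, Spp1 and Ibsp). Alpl and Bglap dropped below 1 FPKM in at least 1 library. Some of these markers differed between the groups: Ibsp (12.8 to 16 FPKM in TABS, 46.8 to 55.2 in HA), Sp7, Alpl and Col1a1 were lower in TABS (adjusted p 1.51e-05 to 0.0269), and Spp1 was higher (3083 to 3569 FPKM against 2082 to 2644, adjusted p = 0.0207). Runx2 and Bglap did not pass, and the 7 markers summed to 3995 to 4509 FPKM in TABS and 3495 to 3847 FPKM in HA. The part of these differences in the mitochondrial results was not tested. The markers of macrophages, endothelium, epithelium and skeletal muscle stayed at or below 0.489 FPKM in every library. The 3 muscle markers, 2 of them listed at 0 in every library, summed to 0.0906 to 0.265 FPKM in TABS and 0.417 to 0.489 FPKM in HA. Of the adipocyte markers, Fabp4 reached 3.38 FPKM, with Adipoq and Plin1 near 0.

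The 37 genes covered a wide range of levels. By its median over the 8 libraries, mt-Co1, the catalytic subunit of cytochrome c oxidase, was the most abundant at 11730 FPKM. The protein genes had medians from 526 FPKM (mt-Nd6) to that value. The ribosomal RNA genes had medians of 80.5 FPKM (mt-Rnr1) and 187 FPKM (mt-Rnr2), far below the mRNAs of the same genome per length. The FPKM of mt-Co1 was 72.6 to 96.4 times that of mt-Rnr2 in TABS and 46.5 to 55.0 times in HA. The sources used here do not say whether poly(A) RNA was selected or ribosomal RNA removed. The tRNA genes had medians from 0.218 FPKM (mt-Ts2) to 285 FPKM (mt-Tn). They are 59 to 75 bases long, shorter than the 150-base reads, so their FPKM values are uncertain.

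TABS and HA were compared with limma on log2(FPKM + 1), over every gene that reached 1 FPKM in at least 4 of 8 libraries, with a Benjamini-Hochberg adjusted p under 0.05 as threshold. Of the 37 mitochondrial genes, 34 entered the test, and mt-Tf, mt-Ts1 and mt-Ts2 did not reach the minimum. In TABS, 8 were lower: mt-Rnr2, mt-Nd2 and the tRNA genes mt-Tv, mt-Tl1, mt-Tw, mt-Tk, mt-Te and mt-Tt. One tRNA gene, mt-Tm, was higher, and 25 did not pass. The 8 lower genes are 23.5% of the 34, beside 2.9% of the 11280 genes tested (327 genes). The single higher gene stands beside 4.49% of all genes tested (506 genes), and in both directions together 7.38% of all genes passed (833 genes). That split of 327 lower and 506 higher became 239 and 915 when values were rescaled to TPM, and 233 and 583 when scaled to genes outside the mitochondrial genome. In 11 of the 34 genes all TABS libraries lay below all HA libraries (32.4%, beside 7.15% of all genes), and in none did all TABS libraries lie above all HA libraries (10.8% of all genes did). The median difference of the 34 genes was -0.26 on the log2 scale, with 29 below 0 and 5 above, whereas over all genes it was 0.01 with 48.0% below 0. Genes cut from the same precursor RNA can vary together across libraries, so these counts are not 34 independent results. The shares were not tested against those of all genes. These are bulk values, so fewer mitochondria, fewer transcripts in each of them and a change in the make-up of the cells cannot be told apart.

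**Figure D1:**
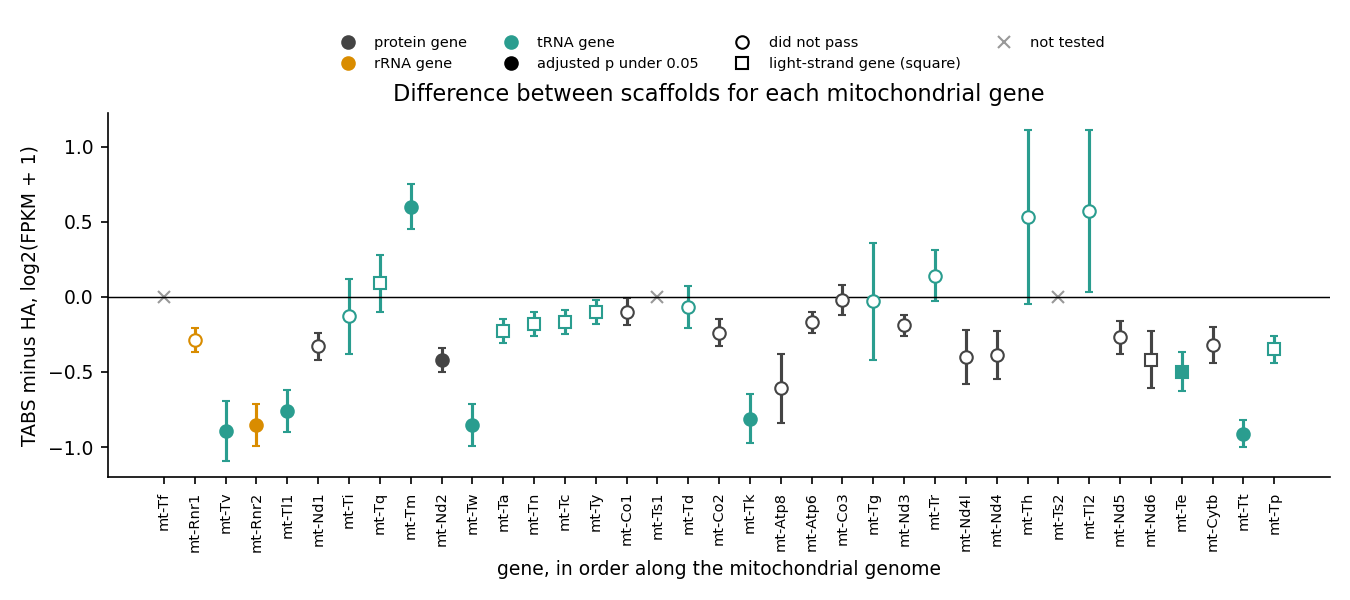
Difference between TABS and HA on the log2(FPKM + 1) scale (vertical axis, with its standard error) for each mitochondrial gene in its order along the genome (horizontal axis). Filled symbols passed the test, squares are light-strand genes and crosses were not tested. Of the 34 tested genes 29 sit below 0, and mt-Tm is the one filled symbol above it.

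The ribosomal RNAs differed in size of change. The gene mt-Rnr2 (chrM:1094-2675, plus strand, 1582 bases) encodes the RNA of the large subunit of the mitochondrial ribosome. Its FPKM was 148, 162, 110 and 126 in TABS and 223, 213, 259 and 294 in HA. All TABS libraries lay below all HA libraries, and the difference was -0.85 ± 0.14 (log2 scale, SE, adjusted p = 0.00708). Leaving out any 1 library kept the call, with an adjusted p of at most 0.0254. The gene mt-Rnr1 (chrM:70-1024, plus strand, 955 bases) encodes the RNA of the small subunit and lies upstream of mt-Rnr2 with mt-Tv between them. Its FPKM was 74.7, 63.7, 76.4 and 80 in TABS and 96.4, 81.0, 88.3 and 95.1 in HA. The groups did not overlap here either, but the difference of -0.29 ± 0.08 did not pass (adjusted p = 0.061). The differences of mt-Rnr1 and mt-Rnr2 were not tested against each other.

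The genes on both sides of mt-Rnr2 were lower as well. Upstream lies mt-Tv (chrM:1025-1093), the valine tRNA, and downstream mt-Tl1 (chrM:2676-2750), one of the leucine tRNAs, followed by mt-Nd1. Both tRNA genes adjoin mt-Rnr2 and are shorter than the 150-base reads, so reads counted on them can run into their neighbours. Their differences may therefore not be independent of that of mt-Rnr2. In mt-Tl1 the FPKM was 230, 228, 152 and 198 in TABS and 306, 304, 352 and 398 in HA, a difference of -0.76 ± 0.14 (adjusted p = 0.0132, at most 0.0393 without any 1 library). The groups were separate, as they were in mt-Rnr2. In mt-Tv the values were low, at 0.563, 0.612, 0.158 and 1.28 FPKM in TABS and 1.29, 1.92, 2.73 and 2.15 in HA, with a difference of -0.89 ± 0.20 (adjusted p = 0.0338). The highest TABS library and the lowest HA library nearly touched. The call on mt-Tv was lost without TABS library 1, 2 or 3 or without HA library 2, 3 or 4 (adjusted p 0.0698 to 0.0823), and with a correction for GC content and length (0.0652). Keeping genes of all levels in the test also ended it (0.108) and that on mt-Tl1 (0.0526). With a pseudocount of 0.1 the difference of mt-Tv was -1.68 and missed the threshold (0.0540).

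**Figure D2:**
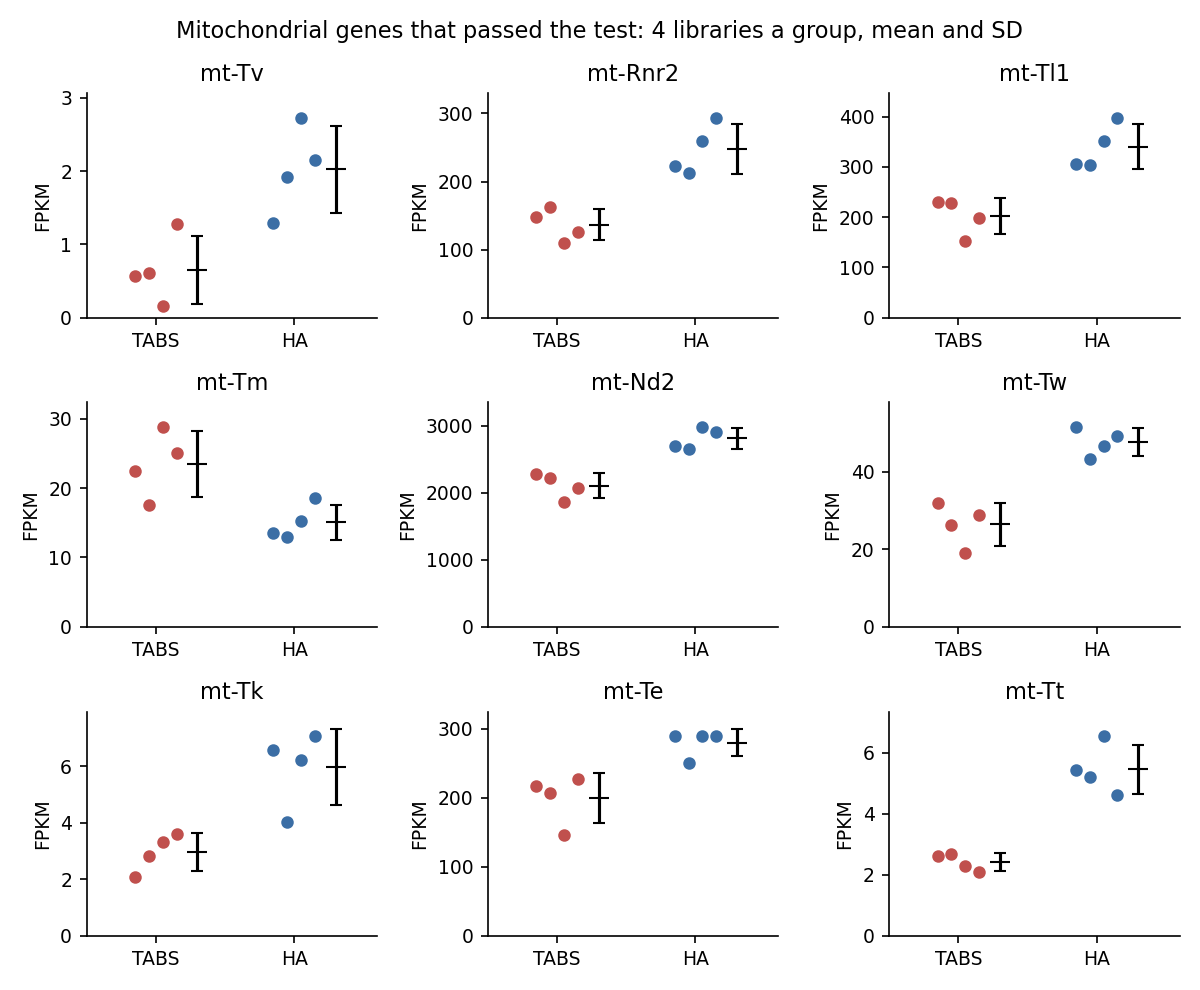
FPKM (vertical axes, each from 0) of the 9 mitochondrial genes that passed the test, with 4 points per group for the libraries and a bar for the mean and SD. In every panel but that of mt-Tm the TABS points lie below the HA points, and for mt-Tm the groups share part of their range.

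Among the 13 protein genes all differences lay below 0, from -0.61 to -0.02 with a median of -0.32, but mt-Co3 turned to 0.02 when rescaled to TPM and to 0.04 after quantile normalization. Only mt-Nd2 passed the test (1 of 13, 7.69%, beside 2.9% of all genes called lower). An unadjusted p under 0.05 was reached by 10 of 13, all on the lower side, beside 10.8% of all genes on that side (1222 genes). With a correction for GC content and length the median was -0.13 and mt-Co1, mt-Co3, mt-Atp6 and mt-Nd3 turned to values above 0, and after quantile normalization the median was -0.14. Quantile normalization gives all libraries the same value at each rank, so differences at the top ranks can shrink by construction (mt-Co1 to -3.7e-15). The median under it cannot tell that effect from a smaller difference. Leaving out 1 library at a time gave medians from -0.35 to -0.22. The TABS library 3 was the lowest of the 8 in 11 of the 13 genes. The highest was HA library 4 in 8 genes and HA library 3 in 5. The 13 genes thus varied together by library, and counts over them are not 13 independent results.

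Complex I, the NADH dehydrogenase at the entry of the chain, has 7 subunits encoded in the mitochondrial genome, and their median difference was -0.39. The gene mt-Nd2 (chrM:3914-4951, plus strand) stood at 2284, 2222, 1858 and 2066 FPKM in TABS and at 2704, 2650, 2991 and 2905 FPKM in HA. No TABS library reached the lowest HA library, and the difference was -0.42 ± 0.08 (adjusted p = 0.0153, at most 0.0482 without any 1 library). The correction for GC content and length ended the call (-0.21, adjusted p = 0.0855), as did quantile normalization (-0.26, adjusted p = 0.0523) and a test on genes of all levels (adjusted p = 0.136). The gene mt-Nd1 (chrM:2751-3707), next to mt-Tl1, stood at 3128, 3011, 2487 and 2863 FPKM in TABS and at 3385, 3383, 3766 and 3844 FPKM in HA. Its groups were separate too, and its difference of -0.33 ± 0.09 just missed the threshold (adjusted p = 0.0533). It passed with a minimum of 5 FPKM (0.0461), with median-of-ratios scaling (0.0484) and after quantile normalization (0.0222). The other 5 subunits had overlapping groups. Their differences were -0.19 ± 0.07 for mt-Nd3, -0.27 ± 0.11 for mt-Nd5, -0.39 ± 0.16 for mt-Nd4, -0.40 ± 0.18 for mt-Nd4l and -0.42 ± 0.19 for mt-Nd6.

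The single mitochondrial gene of complex III, mt-Cytb, encodes cytochrome b. It stood at 4086, 4333, 3061 and 3724 FPKM in TABS and at 4371, 4227, 5026 and 5221 FPKM in HA, with overlapping groups and a difference of -0.32 ± 0.12 (adjusted p = 0.145). Complex IV, cytochrome c oxidase, had the median difference nearest 0 of these complexes, at -0.10 over its 3 genes. The catalytic subunit mt-Co1 stood at 12465, 11777, 10624 and 10924 FPKM in TABS and at 11241, 11683, 12571 and 13662 FPKM in HA, a difference of -0.10 ± 0.09 (adjusted p = 0.538). For mt-Co3 the values were 4034, 4322, 4231 and 4615 FPKM in TABS and 3711, 4171, 4846 and 4835 FPKM in HA, a difference of -0.02 ± 0.10 (adjusted p = 0.919). The lowest of the 8 libraries in mt-Co3 was an HA library. For mt-Co2 the difference was -0.24 ± 0.09 (adjusted p = 0.148). Of the ATP synthase subunits, mt-Atp8 had a difference of -0.61 ± 0.23 (adjusted p = 0.15) and mt-Atp6 one of -0.17 ± 0.07 (adjusted p = 0.172). These genes share 43 bases, so some reads could belong to either.

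Some protein genes have near-identical copies in the nuclear genome that also carried signal. A search of all nuclear transcripts against the mitochondrial ones, at 95% identity over 80% of the length, found 7 unprocessed pseudogenes side by side on chromosome 1 (GRCm38, 1:24611535-24616197, minus strand). They are Gm29216 (mt-Co1), Gm28661 (mt-Co2), Gm10925 (mt-Atp6), Gm28437 (mt-Co3), Gm28438 (mt-Nd3), Gm10222 (mt-Nd4l) and Gm28439 (mt-Nd4). Of these, 5 had no mismatch to the mitochondrial transcript over the matched stretch and 2 had 1 mismatch, and they held 4.29% to 5.77% of the summed FPKM of a library. The mismatches are shown with their surroundings, since they are the bases within the matched stretch at which those copies and the mitochondrial gene differ. Of Gm29216, 483 of 492 bases matched mt-Co1. Both lines of a pair read 5′ to 3′ along the transcripts of GENCODE release M21, with the differing base in capitals and positions counted from the first base of the mitochondrial transcript. The first pair carries A1066T and the second T3C, with the mitochondrial base written first.
mt-Co1: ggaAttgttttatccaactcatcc
Gm29216: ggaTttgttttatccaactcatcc
mt-Nd3: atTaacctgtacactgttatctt
Gm28438: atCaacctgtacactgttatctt

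FPKM multiplied by length gives a value proportional to fragments, if the authors used the annotated length. On that scale the copy Gm28661 held 0.9997 to 1.0 times the fragments of mt-Co2, and Gm28437 held 0.9987 to 0.9992 times those of mt-Co3. Likewise Gm10222 held 0.996 to 1.003 times those of mt-Nd4l, and Gm28438 held 0.9913 to 0.9956 times those of mt-Nd3. In these 4 pairs the gene and its copy were thus nearly equal in all 8 libraries. The other pairs were unequal, and Gm10925 held 4.536 to 6.311 times the fragments of mt-Atp6. Gm28439 held 0.3965 to 0.4397 times those of mt-Nd4, and Gm29216 held 0.07202 to 0.08217 times those of mt-Co1. However, Gm28439 (876 bases, mt-Nd4 1378) and Gm29216 (492 bases, mt-Co1 1545) are shorter than their genes. Per length, their FPKM was 0.624 to 0.692 times that of mt-Nd4 and 0.226 to 0.258 times that of mt-Co1. The sources used here do not say how reads that match more than 1 place were assigned, and reads of a gene and its copy cannot be told apart.

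With each copy added to its gene, an alternative chosen after the data were seen, 8 mitochondrial genes were again lower and 1 higher. The gene most altered was mt-Atp6, whose values became 3361, 3094, 2748 and 3268 FPKM in TABS and 3714, 3360, 3919 and 4266 FPKM in HA. Its difference was then -0.29 ± 0.09 and did not pass (adjusted p = 0.093). None of the genes that passed the test (mt-Rnr2, mt-Nd2 and the 7 tRNA genes) has an annotated copy in this block, and the bases between the annotated copies were not searched. A further 4 copies on chromosomes 2 and 13, of mt-Co1, mt-Co2, mt-Nd2 and mt-Nd5, stayed at or below 4.5 FPKM.

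**Figure D3:**
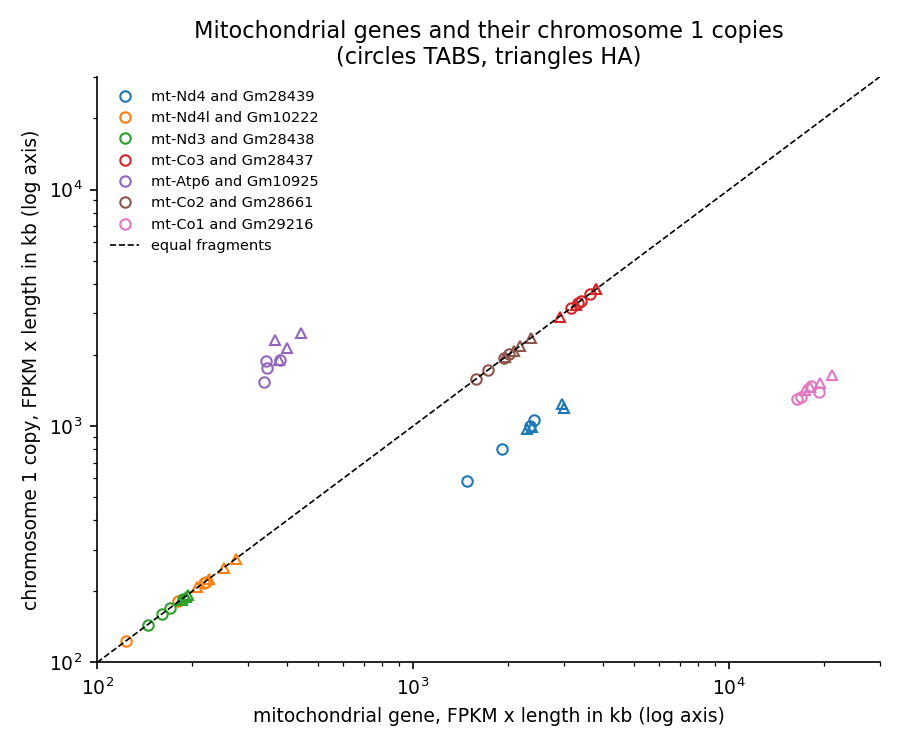
FPKM multiplied by length in kilobases for 7 mitochondrial genes (horizontal, log axis) and their copies on chromosome 1 (vertical, log axis), with 1 symbol per library, circles for TABS and triangles for HA. The pairs of mt-Co2, mt-Co3, mt-Nd3 and mt-Nd4l sit on the dashed line of equal fragments, mt-Atp6 sits above it, and mt-Nd4 and mt-Co1 sit below it.

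Of the 19 tRNA genes tested, 6 were lower in TABS (31.6%, beside 2.9% of all genes tested). Only 1 was higher, beside 4.49% of all genes tested, and 12 did not pass. Transfer RNAs carry amino acids to the ribosome and read codons through the anticodon. The 7 genes that passed are shown as GENCODE release M21 gives their transcripts on GRCm38, 5′ to 3′, with the anticodon in capitals. The anticodon was placed by a search for the paired stem around its loop.
mt-Tv: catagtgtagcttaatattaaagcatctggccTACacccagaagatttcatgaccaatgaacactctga
mt-Tl1: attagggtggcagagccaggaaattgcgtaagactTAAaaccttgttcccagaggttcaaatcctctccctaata
mt-Tm: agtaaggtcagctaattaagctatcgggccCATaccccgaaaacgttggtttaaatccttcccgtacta
mt-Tw: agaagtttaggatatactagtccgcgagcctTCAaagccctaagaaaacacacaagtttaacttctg
mt-Tk: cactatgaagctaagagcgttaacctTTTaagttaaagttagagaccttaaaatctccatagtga
mt-Te: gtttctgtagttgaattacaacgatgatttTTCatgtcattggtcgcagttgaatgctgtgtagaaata
mt-Tt: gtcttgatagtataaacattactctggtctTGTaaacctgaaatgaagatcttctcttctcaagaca

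The threonine tRNA, mt-Tt (chrM:15289-15355), had the smallest adjusted p of the 34 genes. Its FPKM was 2.63, 2.68, 2.28 and 2.08 in TABS and 5.43, 5.21, 6.57 and 4.63 in HA. The groups were far apart for their spread, with a difference of -0.91 ± 0.09 (adjusted p = 0.000979, at most 0.00464 without any 1 library). These are low values of a short gene. With a minimum of 5 FPKM, mt-Tt, mt-Tk and mt-Tv left the test, so their calls could not be checked there. Under that minimum 7 mitochondrial genes were lower, mt-Nd1 and mt-Tp among them. The tryptophan tRNA, mt-Tw (chrM:4950-5016), overlaps the end of mt-Nd2 by 2 bases. It stood at 32, 26.2, 18.9 and 28.8 FPKM in TABS and at 51.7, 43.4, 46.6 and 49.3 FPKM in HA, a difference of -0.85 ± 0.14 (adjusted p = 0.00788, at most 0.0274 without any 1 library). All TABS values again lay below all HA values. With the correction for GC content and length, mt-Rnr2, mt-Tl1, mt-Tw, mt-Tk and mt-Tt stayed past the threshold in the lower direction and mt-Tm in the higher one.

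Calls on the lysine, glutamate and methionine tRNAs depended on which libraries were kept. The lysine tRNA, mt-Tk (chrM:7700-7764), stood at 2.09, 2.82, 3.32 and 3.61 FPKM in TABS and at 6.59, 4.04, 6.21 and 7.09 FPKM in HA, a difference of -0.81 ± 0.16 (adjusted p = 0.0206). Without TABS library 2 or HA library 1, 3 or 4 it no longer passed (adjusted p 0.0514 to 0.0558), nor with genes of all levels in the test (0.0739). The glutamate tRNA, mt-Te (chrM:14071-14139, minus strand), is the one light-strand gene that passed. Its FPKM was 217, 206, 146 and 227 in TABS and 289, 250, 289 and 290 in HA, a difference of -0.50 ± 0.13 (adjusted p = 0.0483). It passed with all libraries or without TABS library 3, and leaving out any other library gave adjusted p values from 0.0525 to 0.105. The GC and length correction (0.138), quantile normalization (0.101), a test on genes of all levels (0.141) and scaling to genes outside the mitochondrial genome (0.0576) ended the call too.

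The methionine tRNA, mt-Tm (chrM:3845-3913), lies just upstream of mt-Nd2 and differed in the opposite direction. It stood at 22.5, 17.5, 28.9 and 25.1 FPKM in TABS and at 13.5, 13, 15.2 and 18.6 FPKM in HA. The lowest TABS library fell below the highest HA library, and the difference was 0.60 ± 0.15 (adjusted p = 0.0467). Without TABS library 1, 3 or 4 or HA library 1, 2 or 3 the call was lost, with adjusted p values from 0.0924 to 0.116, and with genes of all levels in the test it was 0.136.

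The tRNA genes that did not pass held 2 patterns of level. The genes mt-Ta, mt-Tn, mt-Tc and mt-Ty lie in a row on the minus strand (chrM:5018-5326) and were among the most abundant tRNA genes, between 128 and 318 FPKM in every library. Their differences were -0.23, -0.18, -0.17 and -0.10, and all 4 had overlapping groups. The genes mt-Tg, mt-Th and mt-Tl2, on the plus strand, were uneven within TABS. For mt-Th, the histidine tRNA, the FPKM was 5.12, 3.68, 21.5 and 30.1 in TABS and 12.6, 6.13, 6.5 and 5.36 in HA. For mt-Tl2, the other leucine tRNA, it was 3.37, 3.20, 16.5 and 20.3 in TABS and 8.47, 3.99, 4.75 and 4.17 in HA. For mt-Tg, the glycine tRNA, it was 6.97, 5.91, 17.5 and 25.0 in TABS and 15.8, 11.3, 10.7 and 10.7 in HA. TABS libraries 3 and 4 were above all HA libraries in these 3 genes, TABS libraries 1 and 2 were below all of them, and none of the 3 passed (adjusted p 0.562 to 0.978).

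The remaining tested tRNA genes were mt-Ti, mt-Tq, mt-Td, mt-Tr and mt-Tp. The proline tRNA, mt-Tp (chrM:15356-15422, minus strand), is the neighbour of mt-Tt on the opposite strand. It stood at 38.3, 34.0, 29.5 and 40.4 FPKM in TABS and at 49.4, 42.4, 45.3 and 44.6 FPKM in HA. The groups were separate, and the difference of -0.35 ± 0.09 just missed the threshold (adjusted p = 0.0522). It passed with a minimum of 5 FPKM (0.0444), after quantile normalization (0.0491) and without TABS library 4 (0.04). The other 4 stood between 0.87 and 5.09 FPKM in all libraries, with overlapping groups and differences from -0.13 to 0.14. Of the 3 untested genes, mt-Ts1 was below 1 FPKM in all libraries, at 0.153, 0.0108, 0.183 and 0.158 in TABS and 0.415, 0.277, 0.672 and 0.368 in HA. The other untested genes, mt-Tf and mt-Ts2, had overlapping groups, at 0.102 to 0.564 FPKM and 0.143 to 3.12 FPKM.

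**Figure D4:**
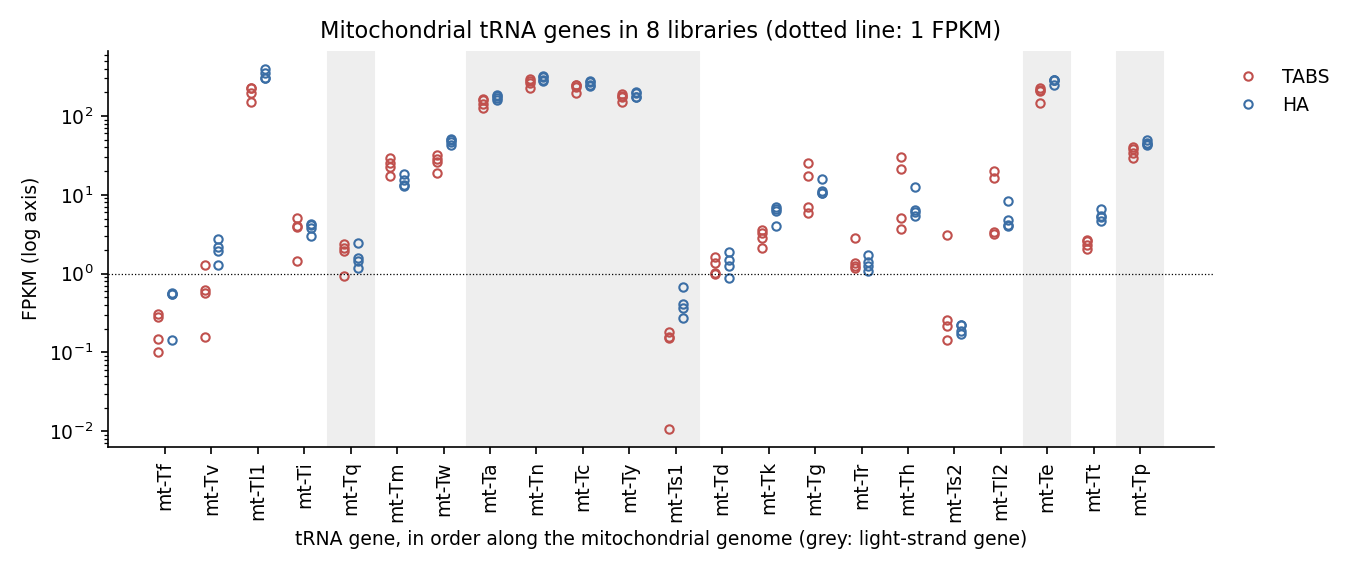
FPKM of the 22 mitochondrial tRNA genes (vertical, log axis) in order along the genome (horizontal axis), with 1 circle per library, red for TABS and blue for HA, and grey bands for light-strand genes. The light-strand genes mt-Ta, mt-Tn, mt-Tc, mt-Ty and mt-Te lie above 100 FPKM in all libraries, and the TABS circles of mt-Tg, mt-Th and mt-Tl2 fall into a lower and a higher pair.

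By strand, the 8 light-strand tRNA genes had gene medians centred on 170 FPKM and the 14 heavy-strand tRNA genes on 3.89 FPKM. Of the heavy-strand tRNA genes tested, 5 of 12 were lower (41.7%) and 1 was higher, with a median difference of -0.10. Of the light-strand ones, 1 of 7 was lower (14.3%), with a median of -0.18. Over all genes tested, 2.9% were lower and 4.49% higher. The strands were not tested against each other. The summed FPKM of the heavy-strand tRNA genes was 314, 294, 270 and 343 in TABS and 430, 400, 457 and 507 in HA, with no overlap. Most of that sum was mt-Tl1 alone, at 230, 228, 152 and 198 in TABS and 306, 304, 352 and 398 in HA. The sum thus mainly repeats that gene, and 4 of the 12 tested heavy-strand tRNA genes had differences above 0. That of the light-strand tRNA genes was 1107, 945, 1007 and 1161 in TABS and 1313, 1147, 1214 and 1310 in HA, with a slight overlap. The sources used here give no strand setting for the counting, so reads of a light-strand tRNA gene and of the heavy-strand precursor that crosses it cannot be told apart. For protein genes, the log2 ratio of mt-Nd6 to the other 12 summed was -6.26 ± 0.32 in TABS and -6.06 ± 0.16 in HA (SD, n = 4 each). This difference lay within the spread between libraries (exact permutation p = 0.343, two-sided, 0.429 adjusted over 5 library measures).

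The share of all mitochondrial genes in the summed FPKM was 12.2%, 12.1%, 10.2% and 11.5% in TABS and 12.1%, 12.1%, 13.8% and 14.5% in HA. The groups overlapped: TABS libraries 1 and 2 and HA libraries 1 and 2 were alike, with TABS library 3 below them and HA libraries 3 and 4 above. The difference of the means was -1.63 percentage points (exact permutation p = 0.143, 0.238 adjusted). As a share of fragments, with each FPKM multiplied by its gene length, it was 3.86% ± 0.33 in TABS and 4.46% ± 0.41 in HA (SD, n = 4 each, exact permutation p = 0.114, 0.238 adjusted). With the chromosome 1 copies added to the FPKM share, it was 15.6% ± 1.19 and 17.7% ± 1.66 (SD, n = 4 each, exact permutation p = 0.171, 0.286 adjusted).

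Of the ratios between classes, that of rRNA to protein genes had the smallest spread within groups. The log2 ratio of summed rRNA FPKM to summed protein FPKM was -7.33, -7.30, -7.31 and -7.35 in TABS and -6.83, -6.94, -6.91 and -6.79 in HA. The groups were separate and each was narrow, with a difference of -0.45. The exact permutation p of 0.0286, two-sided, is the smallest that 70 assignments of 8 libraries allow, and adjusted over the 5 measures it was 0.143, which did not pass. The summed rRNA FPKM itself was 223, 226, 187 and 206 in TABS and 319, 293, 347 and 389 in HA. The larger part of it was mt-Rnr2 in every library. By gene, the limma difference was -0.85 for mt-Rnr2 and -0.29 for mt-Rnr1, beside a median of -0.32 for the protein genes. The ratio therefore does not show that both rRNAs were lower relative to the mRNAs. The log2 ratio of tRNA to protein FPKM was -4.63 ± 0.16 in TABS and -4.53 ± 0.11 in HA (SD, n = 4 each, exact permutation p = 0.429, 0.429 adjusted). When class means of log2(FPKM + 1) were used instead of sums, the tRNA difference turned from -0.09 to 0.11.

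**Figure D5:**
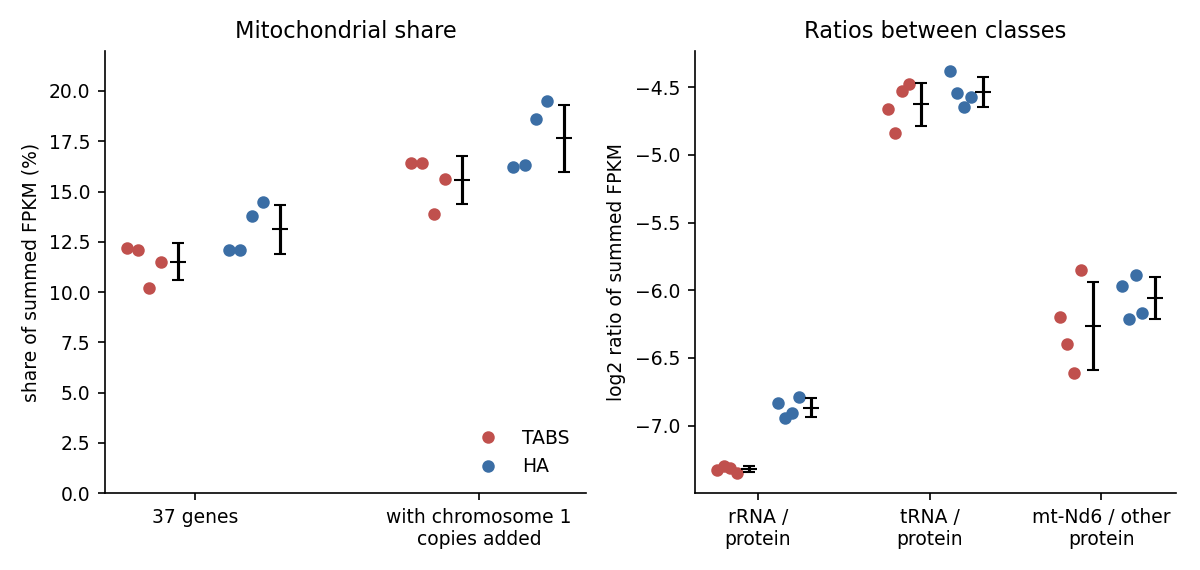
Left, share of the summed FPKM in percent taken by the 37 mitochondrial genes, without and with their chromosome 1 copies, and right, log2 ratios between classes of mitochondrial genes, with 1 point per library and the mean and SD beside them. The rRNA to protein ratio is separate between TABS (-7.35 to -7.30) and HA (-6.94 to -6.79), and the other measures overlap.

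Within the 13 protein genes, each gene's share of their summed FPKM was compared as well. The share of mt-Co1 was 34.7%, 33.2%, 35.9% and 32.6% in TABS and 31.0%, 32.4%, 30.0% and 31.7% in HA, with all TABS libraries above all HA libraries. The share of mt-Nd2 was 6.36%, 6.26%, 6.28% and 6.16% in TABS and 7.46%, 7.36%, 7.15% and 6.74% in HA, and that of mt-Nd1 was 8.53% ± 0.13 and 9.16% ± 0.24 (SD, n = 4 each), both lower without overlap. Each of these 3 had an exact permutation p of 0.0286, and none of the 13 shares passed after adjustment over the family (adjusted p = 0.124 for all 3). With the chromosome 1 copies added, the groups overlapped for mt-Co1, at 27.0% ± 1.18 in TABS and 25.0% ± 0.82 in HA (SD, n = 4 each). Its exact permutation p was then 0.0571 (0.186 adjusted). The shares of mt-Nd1 and mt-Nd2 stayed without overlap (exact permutation p = 0.0286, 0.186 adjusted, for each). The shares of mt-Atp8 (3.97% and 5.17%) and of mt-Co3 (12.9% and 11.2%) had overlapping groups, with exact permutation p values of 0.114 and 0.0857.

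The nuclear genes that express mitochondrial DNA are described by lists of known members. Their counts are to be read beside all genes tested, of which 2.9% were called lower, 4.49% were called higher and 24.1% had an unadjusted p under 0.05 in either direction (2716 genes). Of 18 tested genes for transcription and replication, none passed by limma and 3 had an unadjusted p under 0.05, with a median difference of -0.04. Polrmt, the mitochondrial RNA polymerase, stood at 7.84, 7.28, 7.47 and 7.35 FPKM in TABS and at 6.69, 6.99, 6.25 and 7.03 FPKM in HA, a difference of 0.13 ± 0.05 (adjusted p = 0.126). Mterf4, a factor that works with the rRNA methylase Nsun4 in ribosome assembly, differed by 0.26 ± 0.11 (adjusted p = 0.178), and Lig3, the ligase of mitochondrial DNA, by -0.12 ± 0.05 (adjusted p = 0.193).

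Of 35 genes for processing, modification and decay of mitochondrial RNA, 1 was higher in TABS and none lower, a share below that of all genes called higher, with a median of -0.03. The higher gene was Dhx30, an RNA helicase of mitochondrial RNA granules involved in ribosome assembly. It stood at 7.61, 7.48, 7.44 and 7.67 FPKM in TABS and at 5.28, 6.95, 5.56 and 6.27 FPKM in HA, with no overlap and a difference of 0.29 ± 0.07 (adjusted p = 0.042). The call was lost without any 1 library other than HA library 2 (adjusted p 0.0661 to 0.103), with the GC and length correction (0.138) and with genes of all levels in the test (0.104). Trmu, which thiolates the wobble base of some mitochondrial tRNAs, those of lysine and glutamate among them, differed by -0.15 ± 0.05 (adjusted p = 0.112). Nsun3, which modifies the anticodon of the mitochondrial methionine tRNA, stood at 1.16 ± 0.03 FPKM in TABS and 1.34 ± 0.12 FPKM in HA (SD, n = 4 each, difference -0.11 ± 0.05, adjusted p = 0.211).

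Of 23 genes that charge mitochondrial tRNAs, 1 was lower and none higher, close to the share of all genes called lower, with a median of 0.00. The lower gene was Gatb, a subunit of the amidotransferase that completes the charging of glutamine tRNA. It stood at 5.56, 5.11, 5.95 and 6.03 FPKM in TABS and at 7.62, 7.50, 7.40 and 6.75 FPKM in HA, with separate groups and a difference of -0.32 ± 0.06 (adjusted p = 0.0131). Gatc, another subunit of that enzyme, differed by -0.13 ± 0.05 (adjusted p = 0.185), and Cars2, the cysteine synthetase, by -0.16 ± 0.07 (adjusted p = 0.176). Of 14 translation factors none passed, and none had an unadjusted p under 0.05. Those with the smallest adjusted p were Mrpl58, a release factor in the mitochondrial ribosome (-0.15 ± 0.07, adjusted p = 0.209), the release factor Mtrf1 (-0.14 ± 0.07, adjusted p = 0.28) and the initiation factor Mtif2 (-0.14 ± 0.07, adjusted p = 0.292).

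The nuclear subunits of the complexes that the mitochondrial mRNAs also build had a median difference of -0.05 over 72 genes. None passed by limma, and 5 had an unadjusted p under 0.05. The smallest adjusted p was that of Ndufb4, an accessory subunit of complex I, at 8.62, 8.77, 9.27 and 8.54 FPKM in TABS and 10.2, 10.3, 9.30 and 9.72 FPKM in HA (-0.15 ± 0.05, adjusted p = 0.085). Ndufs4 (-0.17 ± 0.06, adjusted p = 0.121) and Ndufb1-ps (-0.21 ± 0.08, adjusted p = 0.138), also of complex I, followed. Of 6 tested regulators of mitochondrial biogenesis none passed or had an unadjusted p under 0.05. Nrf1 (0.05 ± 0.05), Gabpa (-0.09 ± 0.08) and Gabpb1 (0.09 ± 0.09), transcription factors of nuclear genes for mitochondria, had adjusted p values from 0.565 to 0.618. Of 20 nuclear genes of mitochondrial membranes and matrix none passed and 1 had an unadjusted p under 0.05, with a median of 0.00. That gene was Hspd1, the matrix chaperonin, at 75.4 ± 2.95 FPKM in TABS and 85.4 ± 5.80 FPKM in HA (SD, n = 4 each, difference -0.18 ± 0.06, adjusted p = 0.0912). Slc25a3, the phosphate carrier, differed by 0.07 ± 0.04 (adjusted p = 0.377).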

How the data were processed

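RNA of 8 libraries (4 TABS, 4 HA) was read as 150-base pairs on a NovaSeq instrument, after TRIzol extraction, an integrity number above 7 and the NEBNext Ultra kit, per the labels' protocols. The authors deposited FPKM values per gene and library. Per the submitters' processing notes fastp, STAR, DESeq2 and build GRCm38 were used; the sources used here give no versions or roles, no annotation or strand setting, and no program for FPKM. Library names in the labels assigned columns to groups.

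Genes at 1 FPKM or more in at least 4 of 8 libraries (11280) were tested on log2(FPKM + 1), with limma's variances following the level (limma 3.58.1, R 4.3.3), two-sided, with Benjamini-Hochberg adjustment over all of them. This scale understates changes of low genes. On simulated data 92% of changes of 0.5 and 99% of changes of 1 on the log2 scale were recovered over 11280 genes, with 7.73% of calls false. The simulation drew each gene independently, with its own mean and spread, and changed genes picked from all those tested. Its rates need not hold for the mitochondrial genes, which vary together and were not assessed apart. Shares and ratios per library were compared by exact permutation over 70 assignments. Symbols, coordinates, lengths and sequences came from GENCODE release M21. Nuclear copies were found with blastn 2.17.0.

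Named are all mitochondrial genes, up to 3 members per nuclear list by smallest adjusted p, and nuclear copies; some genes taken by this rule are not reported here. Members, lists and tests were chosen with earlier results of these data known. Alternatives were other pseudocounts, filters and scalings, a GC and length correction, a replicate block, leaving out each library, and, chosen after seeing the data, copies added to their genes.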

Additional observations from a re-analysis of the deposited data

Results flagged for a closer look

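Within groups of 4 libraries, 1 library stood far from the other 3 in 8 of 84 checks. The checks, done in each group, were 74 of genes and 10 of the 5 library measures. For independent checks chance gives about 1 in 20. Mitochondrial genes vary together by library, so these checks are not independent and the count cannot be judged against that rate. All 8 were genes. HA library 1 was high in 3 tRNA genes of the heavy strand: mt-Tg (15.8 FPKM, others 10.7 to 11.3), mt-Th (12.6 FPKM, others 5.36 to 6.5) and mt-Tl2 (8.47 FPKM, others 3.99 to 4.75). HA library 2 was low in mt-Te, at 250 FPKM against 289 to 290, and HA library 3 was low in mt-Tf, at 0.143 FPKM against 0.545 to 0.564. In TABS, library 1 was high in mt-Ts2 (3.12 FPKM, others 0.143 to 0.261) and mt-Atp6 (558 FPKM, others 496 to 506), and library 4 was high in mt-Tr (2.82 FPKM, others 1.18 to 1.37). Of these genes only mt-Te passed the comparison of TABS with HA. Without HA library 2 it no longer passed (adjusted p = 0.0641).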

How the results depend on the processing

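Depth is unknown, tRNA genes are shorter than a read, and 4 libraries a group limit the exact tests. Over 638 gene values under alternatives, 551 mitochondrial ones kept their direction and side of the threshold, 47 lost a call, 7 gained one and 33 reversed; for named nuclear genes and copies these were 489, 24, 3 and 14 of 530. No cause was tested.

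Counts of lower and higher mitochondrial genes (8 and 1) were 3 and 0 with genes of all levels, and 5 lower with the GC and length correction. Without 1 library they ran from 5 to 8 and from 0 to 1; 5 lower were called without TABS library 2, HA library 3 or HA library 4. The median of the protein genes (-0.32) was -0.14 after quantile normalization and -0.13 after the GC and length correction. Called nuclear genes that express mitochondrial DNA (2) were 1 with genes of all levels and 1 to 2 without 1 library. With the GC and length correction Trmu passed by limma (adjusted p = 0.0354). So did Ndufb1-ps (0.0424), a complex subunit and not part of that count, and Ndufs4, another, without HA library 1 (0.0314). The tRNA to protein ratio reversed to 0.11 with means of log2 values.

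Over all genes, 833 passed, against 542 with genes of all levels, 230 with the replicate block, 303 with the block and the GC and length correction, and 406 to 704 without 1 library. The share of lower calls among all calls moved most under TPM (239 lower, 915 higher) and scaling to genes outside the mitochondrial genome (233 and 583).

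Same-numbered libraries deviated together little or not at all (r = 0.105, 0.05, -0.104 and -0.058), so numbers were not taken to pair libraries. With the replicate block, 4 mitochondrial genes were lower (mt-Rnr1, mt-Tw, mt-Tk and mt-Tt) and 0 nuclear genes that express mitochondrial DNA passed. Calls lost were mt-Rnr2 (adjusted p = 0.0535), mt-Tl1 (0.0613), mt-Tv (0.0832), mt-Nd2 and mt-Te (0.0958 each), Gatb (0.0777) and Dhx30 (0.101). With the block and the GC and length correction, 2 were lower (mt-Tw and mt-Tt) and the protein median was -0.13. There 1 nuclear gene that expresses mitochondrial DNA passed. The sign permutation of 4 pairs cannot go below 0.125.

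Values that reversed were those of genes that did not pass. With the GC and length correction, with or without the block, they were mt-Ti 0.07, mt-Tn 0.02, mt-Tc 0.01, mt-Ty 0.09, mt-Co1 0.06, mt-Td 0.08, mt-Atp6 0.05, mt-Co3 0.17, mt-Tg 0.17 and mt-Nd3 0.04, and among copies Gm28438 0.04, Gm28437 0.17, Gm29216 0.04 and Gm13340 0.07. Both mt-Co3 and Gm28437 gave 0.02 under TPM and 0.04 after quantile normalization, where Gm29216 gave 0.00026. Without TABS library 1, mt-Co3 and Gm28437 gave 0.01 and mt-Tg 0.20 (mt-Co3 and Gm28437 reached -0.10 at the lowest and mt-Tg -0.37 over the libraries left out). Without TABS library 2, mt-Ti gave 0.15 (lowest -0.29) and mt-Tg 0.27, and without TABS library 4, mt-Tq gave -0.004 (highest 0.26) and mt-Tr -0.05 (highest 0.22). Without HA library 1, mt-Td gave 0.03 (lowest -0.18) and mt-Tg 0.10. Without HA library 3, mt-Tq gave -0.0049. Both mt-Co3 and Gm28437 gave 0.03 without HA library 3 or HA library 4.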
